A study of Rattus norvegicus with 4 samples.

Results

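The transcripts described here encode the proteins of the cytosolic ribosome and the factors that start and extend translation on it, measured in rat soleus, a slow muscle used for posture. Members are all probe sets whose annotated gene symbol starts with Rpl, Rps, Eif or Eef, or is Fau, without the Rps6k kinases. The rule reads symbols and uses no measured value. Of 8740 probe sets, 107 qualified, and they stand for 70 of the 4736 genes with a symbol of their own on the array. By role, 43 probe sets read proteins of the large ribosomal subunit, 21 the small subunit, 25 initiation factors, 8 elongation factors and 10 regulators of these factors. A further 40 probe sets carry the symbols of several near-identical copies of such genes and are described apart. Not used were 2 probe sets that share a ribosomal protein symbol with unrelated genes and 3 that hold Rpl-1, an old name from the prolactin family.

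The study asked how soleus gene expression differs after repeated daily inactivity. Control rats were caged with their usual activity over 11 days. In the unloaded group, the rats could not stand on the hind legs during 10 h a day on 11 consecutive days, and all rats were female. Each group has 2 arrays, each read with RNA pooled from 4 to 5 rats, so n counts pools and the p-values measure the spread between pools. The sources used here give no strain or age, and do not say whether a pool number links a control to an unloaded pool.

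A ribosome is built from a large and a small subunit, each a shell of many small proteins around ribosomal RNA. Initiation factors bring the small subunit, the initiator tRNA and the mRNA together, elongation factors carry in amino acids and move the ribosome along, and kinases and binding proteins hold these factors back. In muscle this machinery sets the capacity and the rate of protein synthesis, and many of its mRNAs begin with a pyrimidine-rich stretch through which mTOR signalling controls their translation.

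The letters CTTTC stand for such a stretch here. A few start regions are shown because ribosomal protein and factor genes differ in how often they hold these letters. The sequences are from RefSeq (build GRCr8), which held 60 of the 66 member genes with a tested probe set. Each line runs 5′ to 3′ on the gene's strand, from 15 bases before the annotated start through the first 15 bases of the transcript, with the letters CTTTC in capitals.
Rpl13a (chr1:104748899-104748928, minus strand): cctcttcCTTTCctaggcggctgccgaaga
Rpl19 (chr10:83519049-83519078, plus strand): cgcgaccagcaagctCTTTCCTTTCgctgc
Rpl31 (chr9:49143096-49143125, plus strand): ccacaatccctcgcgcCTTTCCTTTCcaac
Rps10 (chr20:5700730-5700759, minus strand): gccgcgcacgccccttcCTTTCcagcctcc
Rpl3l (chr10:14258431-14258460, plus strand): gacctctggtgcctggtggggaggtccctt
Rps27l (chr8:76443643-76443672, plus strand): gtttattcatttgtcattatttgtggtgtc
Eif5 (chr6:136410318-136410347, plus strand): cccggggccgagggtagcttgagcgcggcg
Eef2k (chr1:184824405-184824434, plus strand): gctccaaccccagccacaacagccccagct
The first 4 are ribosomal protein genes with a match, and the last 4 are genes described below that have none in this window.

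Within 30 bases on either side of the start, CTTTC stood on the gene's strand in 19 of 36 ribosomal protein genes (52.8%), in 1 of 21 initiation and elongation factor genes (4.76%, Eef1g) and in 0 of 3 regulator genes, against 7.84% of 27457 promoters. Counting both strands gave 55.6%, 4.76% and 14.9%. CCGGAA, searched on both strands over the whole 300 bases, was in 36.1% of the ribosomal protein genes and 38.1% of the factor genes, against 15.8% of all promoters. The ribosomal protein genes with CTTTC near the start had a median log2 fold change of 0.03 (19 genes, -0.20 to 0.34) and those without it 0.08 (17 genes, -0.08 to 0.45). Annotated starts can lie some bases from the true start, and a match is a description of these letters only. Pyrimidine-rich stretches with other letters were not counted, so a gene without CTTTC can still hold one.

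The label soleus was checked against markers of slow muscle, which were present on every array (Myh7, the slow myosin heavy chain, read 9534.3 to 11198.2), and none of 7 passed the test (median log2 fold change -0.01). Of 8 fast-muscle markers 4 rose, with a summed signal of 7812 to 9257 in controls and 12606 to 12611 in unloaded pools. None of the tested markers of fibroblasts (6), endothelium (3), leukocytes (3), blood (3), adipocytes (3), nerve (2) or smooth muscle (4) passed, although the summed signals of blood (4326 to 4567 and 5107 to 5199) and smooth muscle (969 to 1087 and 1205 to 1306) were higher in both unloaded pools. Those of endothelium (206 to 214 and 192 to 193) and of Schwann cells and nerve (590 to 640 and 549 to 565) were lower in both. At an unadjusted p under 0.05, Dcn, Fabp4, Alas2, Hbb and Myh11 were higher and Cfd lower among these. Of the listed markers, Cd8a, Itgam, Ptprc, Plin1, Nefl and S100b lay under the brightness limit for testing. Each marker was read by its brightest probe set only, so other probe sets of these genes are not counted. The ratio of the 5′ to the 3′ actin probe set was 0.84 to 0.87 in controls and 0.88 to 0.90 in unloaded pools, and that of Gapdh 0.99 to 1.05 and 1.03 to 1.04. The part of fibre type, other cells or RNA quality in the results below was not tested, and in whole muscle a change in cell makeup and a change per cell cannot be told apart.

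Values below are MAS5 signals in linear units, and log2 fold changes are unloaded minus control on log2(signal + 9), with limma's standard error (SE), its 95% interval and Benjamini-Hochberg adjusted p over all 5257 tested probe sets. A probe set passed at an adjusted p under 0.05. Of the 107 members, 100 had a mean signal of at least 21.0 and were tested. The 7 others were those of Eif2ak1, Rpl5 and Rplp1l3, the dimmer ones of Eif2ak2 and Eif2ak3, and both of Rps2-ps1. A bright probe set shared by Rpl5 and its copy Rpl5l1 was tested apart. Its mean was 3641.2 in controls and 3878.25 in unloaded pools (log2 fold change 0.09).

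In the unloaded soleus the bulk of the ribosomal protein and translation factor transcripts lay close to control levels, and 3 of 100 probe sets passed, all higher. They read Eef2k, the kinase that inhibits elongation factor eEF2, Eif5, the factor that triggers GTP hydrolysis on the initiation complex, and, by the annotation, Rps27l, a small subunit protein whose gene p53 induces. Over all tested probe sets 5.25% passed, 2.59% higher and 2.66% lower. The members' share, 3 of 100, lay under the share in either direction and near the share higher, and 0 members passed lower. Without the adjustment, 15 member probe sets were higher and 9 lower at limma's p under 0.05, against 542 and 550 of all 5257. These 542 and 550 are also the background for the unadjusted counts by role below.

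**Figure D1:**
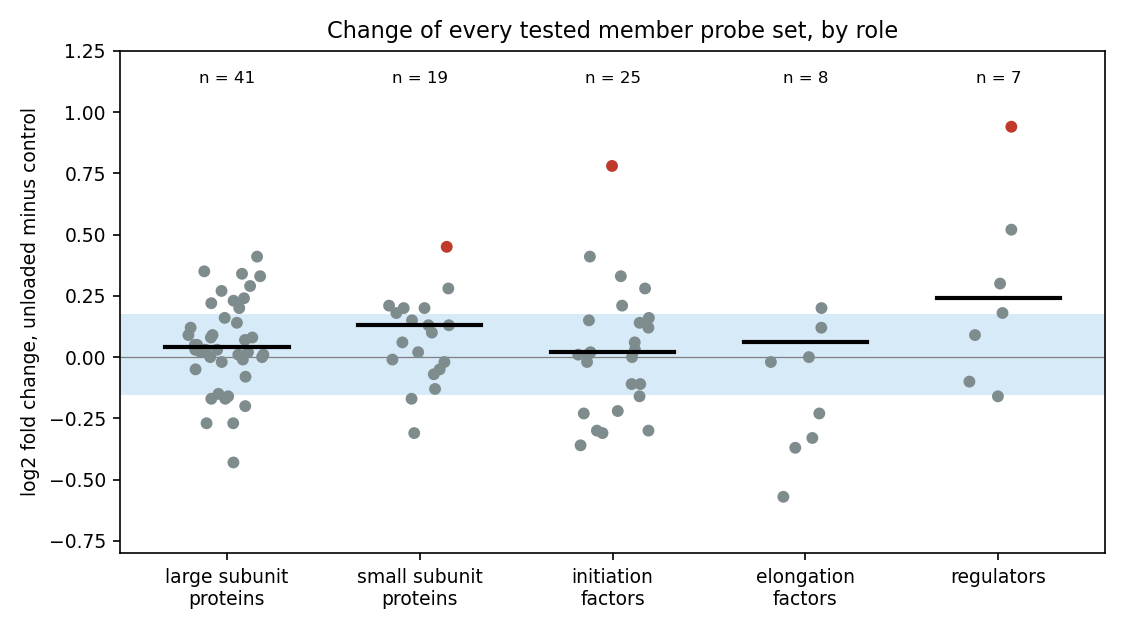
Log2 fold change (unloaded minus control) of the 100 tested member probe sets by role. Points are probe sets, red where limma's adjusted p was under 0.05, black bars are medians over genes, and the blue band is the middle 50% of all tested genes (-0.15 to 0.17). The 3 red points, at 0.45, 0.78 and 0.94, lie above the rest of their columns.

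Eef2k gave the largest change of any member. Its dimmer probe set read 35.7 and 37.8 in the control pools and 74.4 and 83.9 in the unloaded pools. Both unloaded pools lay far above both controls, 1.92-fold on the log2(signal + 9) scale (log2 fold change 0.94, 95% interval 0.59 to 1.30, adjusted p = 0.0137). The brighter probe set of the gene read 92.4 and 93.7 in controls against 126.8 and 147.8 in unloaded pools, in the same direction with no overlap (0.52, interval 0.21 to 0.82, adjusted p = 0.0672), and did not pass. The change of the dimmer probe set ranged from 0.87 to 1.02 with 1 pool left out, and then missed the threshold each time (adjusted p = 0.0761 to 0.121). Without a brightness limit the call was also lost (adjusted p = 0.0663), and it held in 7 of 12 alternatives in all.

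Eif5 is a partner of the ternary complex, which delivers the initiator tRNA. The probe set that passed read 232.0 and 251.9 in controls and 398.0 and 444.6 in unloaded pools. It was 1.71-fold higher (0.78, interval 0.52 to 1.03, adjusted p = 0.0079), with the lowest unloaded pool well above the highest control. A dim probe set of the same gene read 41.6 and 50.7 in controls against 43.7 and 37.2 in unloaded pools, overlapping and not past the threshold (-0.16, interval -0.56 to 0.25). That gap of 0.93 between probe sets was the widest of any member gene. Both probe sets annotated to Eif5 together with its copy Eif5-ps1 lay higher in the unloaded pools, 1 of them past the threshold (0.57, interval 0.34 to 0.79, adjusted p = 0.0174, from 321.65 ± 14.2 to 480.3 ± 2.40, mean ± SD, n = 2) and the other not (0.40, adjusted p = 0.0744). The call for Eif5 was lost with any 1 pool left out (0.70 to 0.86, adjusted p = 0.0562 to 0.0949) and held in 8 of 12 alternatives.

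Rps27l read 439.6 and 427.5 in controls and 587.2 and 606.1 in unloaded pools. Pools of a group lay close together and the groups were wide apart (1.37-fold, 0.45, interval 0.24 to 0.67, adjusted p = 0.0341). The symbol is that of the annotation. The transcript record behind the probe set may be of the paralogue Rps27, which is close in sequence, so which of the pair the signal reads is not settled here. The call held in 5 of 12 alternatives. Settings that lost it included no brightness limit (adjusted p = 0.0714), no mean-variance trend (0.12) and any 1 pool left out (0.129 to 0.191).

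**Figure D2:**
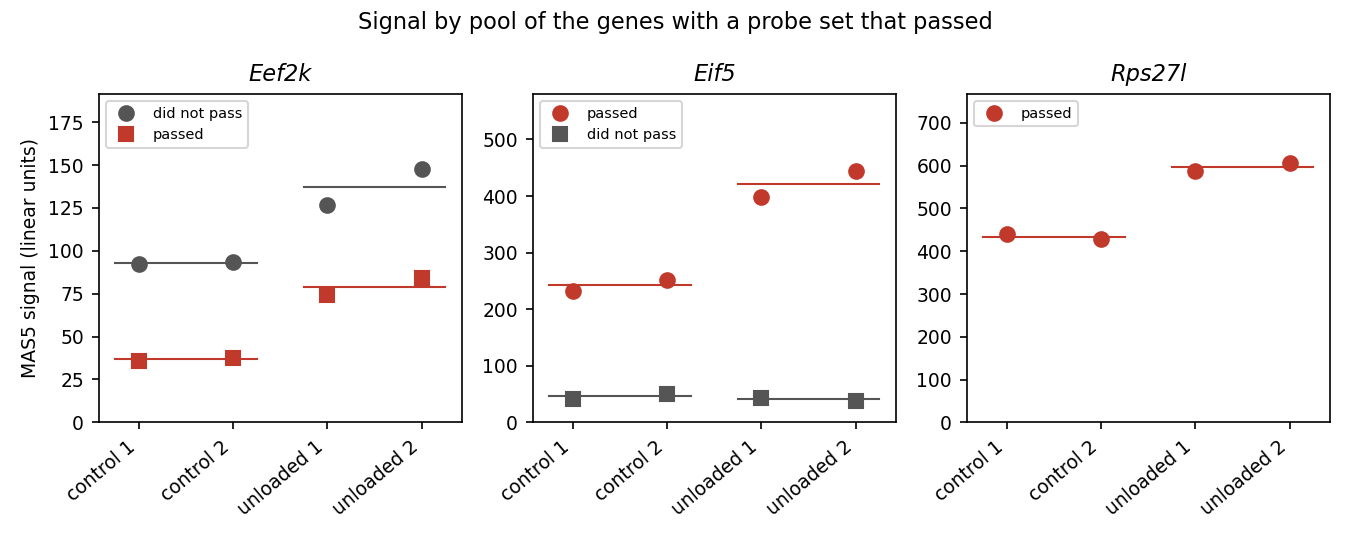
MAS5 signal (linear units, vertical axis from 0) of each pool for every tested single-symbol probe set of Eef2k, Eif5 and Rps27l. Symbols are pools, lines are group means (n = 2 pools), red marks probe sets that passed, and the grey Eif5 probe set, between 37.2 and 50.7, does not follow the red one.

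Among the ribosomal proteins, 1 of 60 probe sets passed, Rps27l, and the 41 genes had a median log2 fold change of 0.06 on their brightest probe set, against 0.01 over all 3152 tested genes. By gene, 28 lay above 0 and 13 below. Median deviations from each gene's own mean were -0.037 and -0.021 log2 in the control pools and 0.046 and 0.026 in the unloaded pools, a small shift of the class median. Both unloaded pools lay above both controls for 24 of 60 probe sets and below for 12 of 60, against 25.5% and 25.3% of all tested probe sets. Among the 352 tested probe sets between the quartiles of the ribosomal proteins' signal (823 to 2178), which include ribosomal proteins themselves, these shares were 36.1% and 26.7%, and the gene median was 0.03.

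The ribosomal proteins also varied little. For 56 of 60 probe sets (93.3%) the 95% interval of the change lay inside 1.5-fold in either direction, against 59.0% of all tested probe sets. Bright probe sets are measured more precisely, and these were bright, with a median signal of 1380 against 94.1. The 352 probe sets between 823 and 2178 cover a narrower range of signal than the ribosomal proteins (29.7 to 6900). Their share was 80.4%, and 21 were higher and 13 lower past the threshold. The median absolute log2 fold change was 0.13 for ribosomal proteins and 0.17 for those 352.

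**Figure D3:**
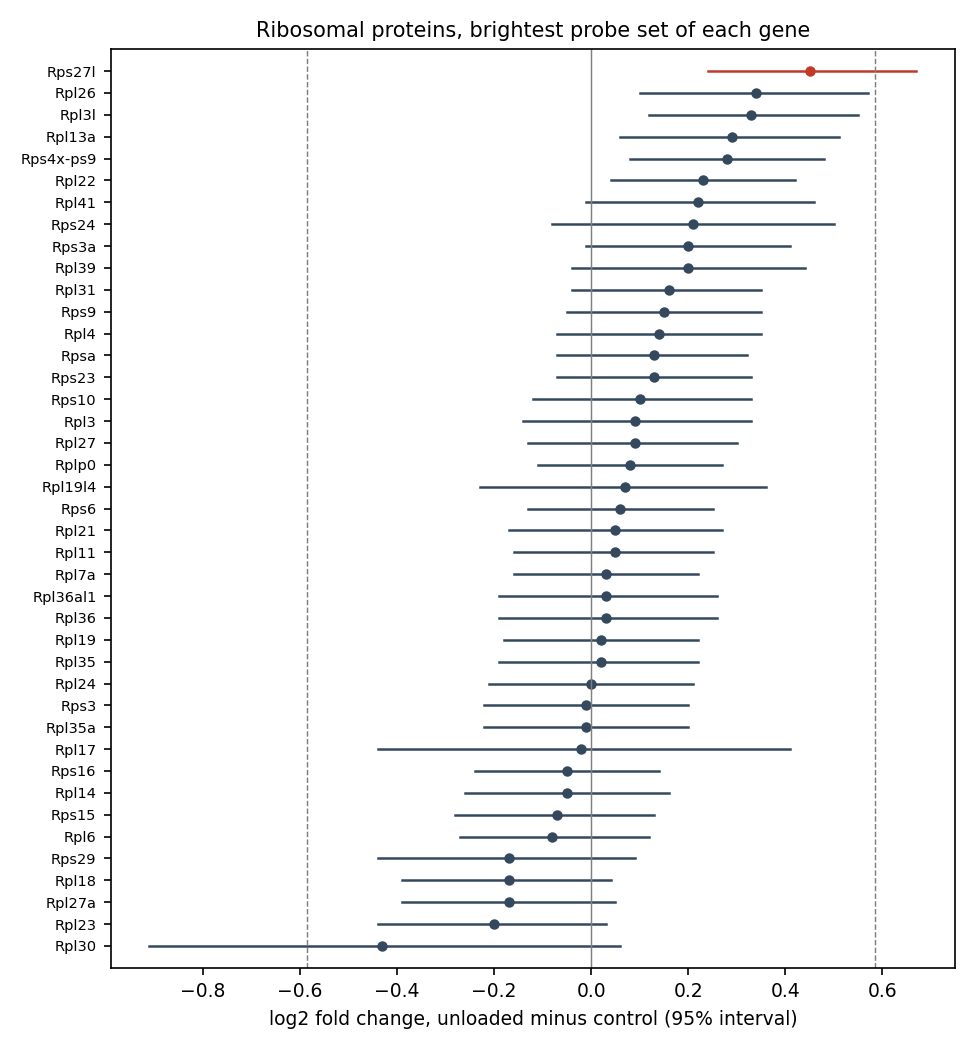
Log2 fold change with its 95% interval for the brightest probe set of each of 41 ribosomal protein genes, sorted by value. The solid line is no change, the dashed lines are 1.5-fold, and red marks Rps27l, which passed; the lowest, Rpl30 at -0.43, rests on a dim probe set with a wide interval.

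In the large subunit 0 of 41 probe sets passed by limma, with 7 higher and 2 lower at an unadjusted p under 0.05, and the 28 genes had a median of 0.04. Rpl3l, the paralogue of Rpl3 made in heart and skeletal muscle, came nearest. Its brighter probe set read 946.8 and 1030.0 in controls and 1252.0 and 1243.9 in unloaded pools. The other, designed from the same transcript record, read 918.6 and 957.5 against 1285.1 and 1115.4. The groups did not overlap on either, with log2 fold changes of 0.33 (interval 0.12 to 0.55, adjusted p = 0.0821) and 0.35 (0.12 to 0.58, adjusted p = 0.102). Rpl3 itself, the core protein beside the peptidyl transferase centre, gave 0.09 (interval -0.14 to 0.33) on its brighter probe set, where the groups overlapped. Its dimmer probe set gave 0.41 (interval 0.10 to 0.72, adjusted p = 0.133), from 428.7 ± 69.0 to 570.2 ± 52.3 (SD, n = 2). A difference between the paralogues was not tested.

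Of the other large subunit proteins named here, Rpl26, Rpl13a, Rpl11 and Rpl23 had probe sets that differed from each other. Rpl26, which lies near the exit tunnel, read 2447.1 and 2795.3 in controls and 3141.5 and 3484.6 in unloaded pools on one probe set (0.34, adjusted p = 0.113), but 0.08 on the other. Rpl13a gave 0.29 (adjusted p = 0.151) on its brighter and -0.27 (adjusted p = 0.231) on its dimmer probe set, each without overlap of the groups and in opposite directions. Rpl22 gave 0.23 (adjusted p = 0.176), from 2024.6 ± 60.7 to 2374.2 ± 2.69. On the lower side were a second probe set of Rpl11 (-0.27, adjusted p = 0.186, against 0.05 on the first), Rpl30 (-0.43, adjusted p = 0.300, at signals of 24.9 to 46.1) and the brighter probe set of Rpl23 (-0.20). The stalk protein Rplp0, often used as a reference gene, gave 0.08 (interval -0.11 to 0.27).

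In the small subunit 1 of 19 probe sets passed, with 3 higher and 1 lower at an unadjusted p under 0.05, and the 13 genes had a median of 0.13. Both unloaded pools lay above both controls for 10 of 19 probe sets and below for 4 of 19. In the large subunit these counts were 14 and 8 of 41, and over all tested probe sets the shares were 25.5% and 25.3%. Rps6, the substrate of S6 kinase, read 2706.5 and 2741.8 in controls and 2872.2 and 2809.2 in unloaded pools on its brighter probe set (0.06, interval -0.13 to 0.25). Its other probe set gave 0.20 (interval 0.00 to 0.40, adjusted p = 0.240). The laminin-binding protein Rpsa gave 0.13 and 0.18 (adjusted p = 0.451 and 0.273), with both unloaded pools above both controls on each. Rps4x-ps9, named as a processed copy of Rps4x, gave 0.28 (adjusted p = 0.121), from 868.95 ± 0.919 to 1057.5 ± 10.5, while both probe sets annotated to Rps4x and this copy gave 0.06 and 0.03. Rps15 was lower on all 3 probe sets without passing on any (-0.31 to -0.02), and Rps3a gave 0.20 (adjusted p = 0.269).

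For ribosomal protein genes read together with their copies, 0 of 37 tested probe sets passed by limma, 3 were higher at an unadjusted p under 0.05, and the median change was 0.01. These 3 were probe sets of Rpl17 and copies (0.46, adjusted p = 0.0672), of Rpl27a and a copy (0.40, adjusted p = 0.179) and of Rpl30 and copies (0.37, adjusted p = 0.0821). Other probe sets of these genes did not rise. Another of Rpl17 and copies gave -0.09, and a dim one of Rpl17 alone -0.02. The much brighter probe set of Rpl27a alone gave -0.17, with both unloaded pools below both controls. That of Rpl30 and copies read 961.3 and 1004.5 in controls and 1187.5 and 1359.7 in unloaded pools, opposite in direction to the dim probe set that carries Rpl30 alone. With these probe sets added, the median over ribosomal proteins was 0.033 instead of 0.060.

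Of 25 initiation factor probe sets 1 passed, Eif5, and the 17 genes had a median change of 0.02, with 12 above 0 and 5 below. By probe set, 3 were higher and 3 lower at limma's unadjusted p under 0.05. Eif4a2, a helicase that opens mRNA leaders, read 1906.6 and 1855.0 in controls and 1511.8 and 1528.0 in unloaded pools on its brighter probe set, with a clear gap between the groups (-0.31, interval -0.50 to -0.11, adjusted p = 0.0848). The second, from the same transcript record, read 1498.4 and 1603.6 against 1200.8 and 1213.4, again with no overlap (-0.36, interval -0.56 to -0.15, adjusted p = 0.0596). The latter passed with quantile normalization (-0.40, adjusted p = 0.0372) and with a stricter brightness limit (-0.36, adjusted p = 0.0366), and the range over its 12 alternatives was 0.0366 to 0.262. Eif4h, which stimulates that helicase, gave -0.11, -0.23 and -0.30 on 3 probe sets (adjusted p = 0.639, 0.373 and 0.232), and Eif5b, which joins the subunits, gave -0.30 (adjusted p = 0.267).

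Eif2s3, the gamma subunit of eIF2, read 335.9 and 286.2 in controls and 405.7 and 381.2 in unloaded pools, without overlap (0.33, interval 0.07 to 0.60, adjusted p = 0.157). Eif2s1, the subunit phosphorylated under stress, gave 0.21 (interval -0.06 to 0.47, adjusted p = 0.351). The exchange factor eIF2B recharges eIF2 with GTP, and its subunits lay on both sides of 0. Eif2b3 gave 0.41 and 0.28 on its dimmer probe sets, which share a transcript record, and -0.22 on the brightest (adjusted p = 0.201, 0.302 and 0.556). Eif2b4 gave 0.14, Eif2b2 0.00, Eif2b1 0.01 and -0.11, and Eif2b5, the catalytic subunit, -0.02 with a wide interval of -0.61 to 0.58, its control pools reading 92.3 and 48.1.

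The cap-binding protein Eif4e read 174.8 and 208.1 in controls and 209.5 and 216.3 in unloaded pools, a gap between groups smaller than the spread of the controls (0.15, interval -0.13 to 0.44, adjusted p = 0.557). Eif4e2, a related cap-binding protein, gave 0.02. Subunits of eIF3, which holds the small subunit ready for mRNA, gave 0.16 and 0.06 (Eif3b), 0.03 (Eif3d) and 0.01 (Eif3m), and Eif2d, which can deliver tRNA without eIF2, gave 0.12. For Fau, Eif4g1, Eif4ebp2, Eif5a, Eif3a and Eef1b2 no value was analysed here.

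None of 8 elongation factor probe sets passed by limma, and 3 were lower at an unadjusted p under 0.05. Eef2, the factor that moves the ribosome by a codon and the target of Eef2k, was read by 4 probe sets. The brightest read 3739.4 and 3694.6 in controls and 3471.3 and 3860.2 in unloaded pools, overlapping (-0.02, interval -0.23 to 0.19). The next gave -0.23 (adjusted p = 0.271). Another from the same transcript record read 2231.7 and 1933.8 against 1485.7 and 1744.9 (-0.37, interval -0.63 to -0.10, adjusted p = 0.123), and the dimmest gave -0.33 (adjusted p = 0.162). All but the brightest placed both unloaded pools below both controls, so the probe sets of this gene disagree in size.

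Eef1a1 and Eef1a2 encode the factors that bring aminoacyl-tRNA to the ribosome, Eef1a2 being the form of adult muscle and neurons. Eef1a2 read 3990.4 and 4333.3 in controls and 3874.1 and 4447.7 in unloaded pools, with full overlap (0.00, interval -0.23 to 0.23). Eef1a1 read 1137.3 and 1274.0 against 1482.6 and 1285.0 on its bright probe set (0.20, adjusted p = 0.346). A dim one, at 24.1 to 46.0, gave -0.57 (interval -0.99 to -0.15, adjusted p = 0.127), the lowest value of any member. The exchange subunit Eef1g gave 0.12 (adjusted p = 0.515).

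Apart from Eef2k, none of the tested regulators passed. Eif4ebp1, the repressor that sequesters eIF4E until mTOR phosphorylates it, gave 0.09, -0.16 and -0.10 on 3 probe sets (adjusted p = 0.677, 0.447 and 0.698). The brightest of these read 628.3 and 579.8 in controls and 635.5 and 648.5 in unloaded pools, close together. Eif2ak2, the kinase PKR that responds to double-stranded RNA, gave 0.30 (interval -0.15 to 0.76, adjusted p = 0.436), and Eif2ak3, the kinase PERK of the endoplasmic reticulum, gave 0.18 (interval -0.35 to 0.72, adjusted p = 0.719). Both are dim, at 17.5 to 68.1 across pools, so their intervals do not bound a change of 1.5-fold.

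**Figure D4:**
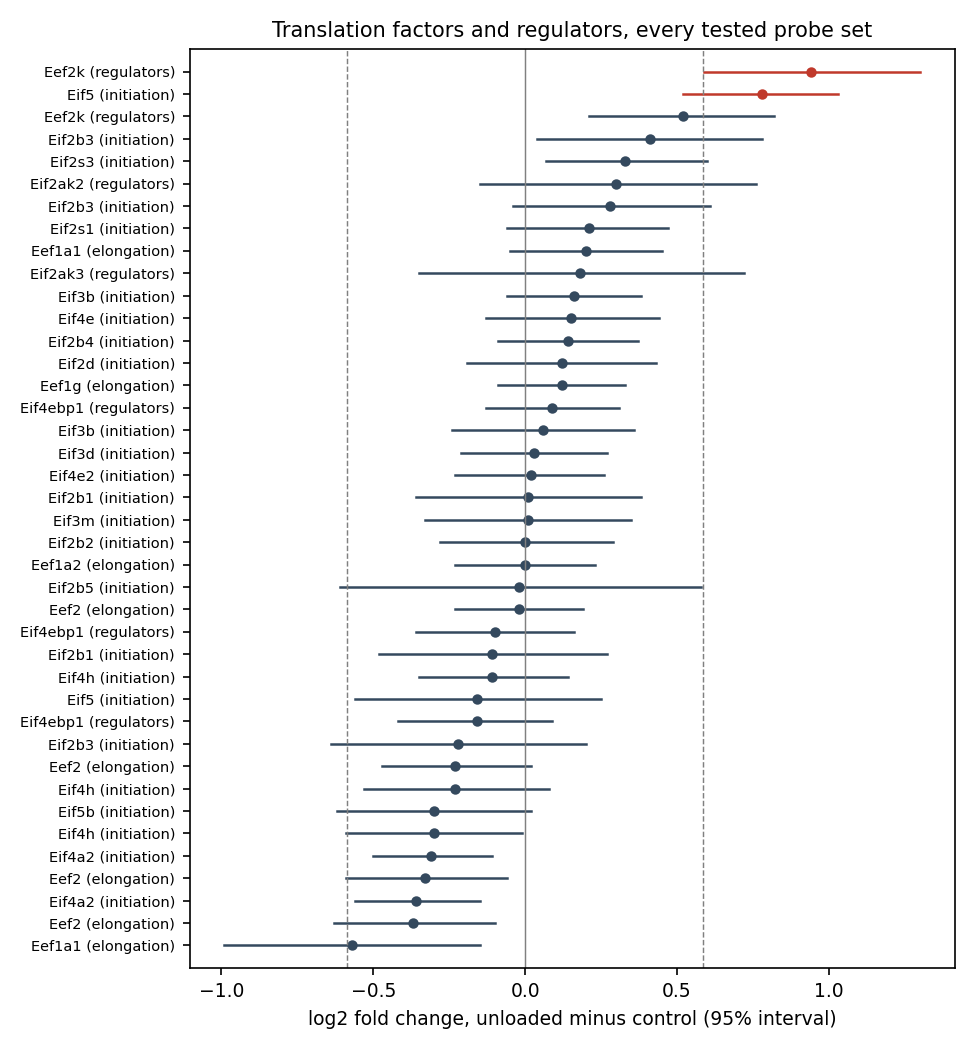
Log2 fold change with its 95% interval for all 40 tested probe sets of initiation factors, elongation factors and regulators, sorted by value. A gene appears once for each probe set, the dashed lines are 1.5-fold, and red marks the probe sets of Eef2k (0.94) and Eif5 (0.78) that passed.

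Set side by side, ribosomal proteins had a median log2 fold change of 0.060 over 41 genes, and initiation and elongation factors together one of 0.015 over 21 genes. The difference of 0.045 was smaller than its spread between pools of a group (SD 0.053), and its sign turned to -0.039 without control pool 1 and to -0.049 without unloaded pool 1. The interval lay inside 1.5-fold for 93.3% of ribosomal protein probe sets, 66.7% of those of initiation and elongation factors and 42.9% of the 7 for regulators. Within groups, the median SD was 0.07, 0.12 and 0.10 log2 in these classes and 0.13 over all tested probe sets, and the factors were dimmer (median signal 332). Median absolute changes were 0.13, 0.16 and 0.18, against 0.17 over all tested probe sets.

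Where a gene had several tested probe sets, they often lay on different sides of 0. Of 26 such genes, 14 had all probe sets on the same side of 0 and 12 did not (9 of 16 ribosomal protein genes and 5 of 10 factor and regulator genes agreed). The median gap between the highest and lowest was 0.23 log2. Rpl3l (0.01), Eif4a2 (0.05) and Rpsa (0.05) were among the closest, with every probe set on the same side. In each of these genes the probe sets share a transcript record, so they are not independent readings. Eif5 (0.93), Eef1a1 (0.77) and Eif2b3 (0.63) were the widest.

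Genes that supply or govern this machinery were counted by list, each by its brightest probe set, so other probe sets of a gene are not counted. Over all tested probe sets 2.59% passed higher and 2.66% lower. For nucleolar and ribosome assembly genes, 0 of 11 passed by limma (median -0.03; 1 was lower at an unadjusted p under 0.05), with Nop58 at -0.38 (SE 0.15, adjusted p = 0.203), Gnl3 at -0.28 and Ubtf, the activator of ribosomal RNA transcription, at -0.30. For tRNA synthetases 0 of 5 passed (median 0.06; 1 was higher at an unadjusted p under 0.05), with Tars1 at 0.31 (SE 0.11, adjusted p = 0.164), and for termination and poly(A) binding 0 of 2 (0 at an unadjusted p under 0.05), Paip1 at 0.28 and Pelo at -0.16. Of 14 mitochondrial ribosomal proteins 2 fell, Mrpl23 from 294.3 and 300.7 to 206.6 and 161.8 (-0.68, SE 0.13, adjusted p = 0.0298) and Mrps6 from 147.0 and 128.3 to 90.1 and 75.9 (-0.67, SE 0.14, adjusted p = 0.0384), while the median was 0.11. In the other direction, Mrpl45 (0.33, SE 0.13, adjusted p = 0.199) and Mrpl38 (0.31, SE 0.13, adjusted p = 0.231) were higher at limma's unadjusted p under 0.05.

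In mTOR and S6 kinase signalling 1 of 13 genes fell, the insulin receptor adaptor Irs1 (-0.92, SE 0.18, adjusted p = 0.0271), and 12 did not pass (median -0.02). Insr gave -0.42 (SE 0.17, adjusted p = 0.223) and the S6 kinase gene Rps6kb1 gave -0.29 (SE 0.13, adjusted p = 0.243), while Mtor gave 0.01. In the eIF2 stress response 2 of 6 genes fell and 4 did not pass (median -0.27). They were Atf3 (-2.79, SE 0.16, adjusted p = 1.4e-04) and Ppp1r15a, the phosphatase subunit that reverses phosphorylation of eIF2 (-1.99, SE 0.13, adjusted p = 1.9e-04). The chaperone gene Hspa5 gave -0.35 (SE 0.10, adjusted p = 0.0946). Cebpb lay on the other side at 0.29 (SE 0.09, adjusted p = 0.121), and Gcn1 and Ddit3 gave -0.19 and -0.11.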

How the data were processed

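RNA from soleus was read on 4 one-colour Affymetrix arrays (2 control and 2 unloaded pools). The authors deposited 1 table of linear intensity values (MAS5 signals, per the submitters' processing notes); the sources used here give no MAS5 version or settings. The trimmed mean was 150.2 or 150.3 on all arrays, and such scaling assumes alike total mRNA signal. Of 8799 probe sets, 59 controls were left out. Symbols came from the platform annotation, updated by gene ID to RefSeq (GRCr8): 7006 probe sets had 1 symbol, 308 several and 1426 none, and of the members 104 matched and 3 kept older names. Signals were taken as log2(signal + 9), 9 being their 25th percentile, which understates changes of dim transcripts, and probe sets with a mean under the 40th percentile (21.0) were not tested. The fit used limma 3.58.1 in R 4.3.3 (lmFit, eBayes with a mean-variance trend; 2 residual and 5.80 prior degrees of freedom) over all 5257 probe sets, and was tested on simulated data. The brightest probe set stands for a gene in medians, in the counts of markers and of the other gene lists, and in summed signals. Figures used matplotlib 3.10.9.

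Members, gene lists and tests were chosen with earlier results of these data known. Genes were named if a probe set passed, if among the 3 smallest p of a role and direction, or from a fixed set. For the other lists up to 3 genes by p were named. Added were Rpl31, Rpl19, Rps10, Mrpl38, Mtor, Cebpb, Gcn1, Ddit3 and members given to complete a complex or copy family. Alternatives were other normalizations, offsets, brightness limits and thresholds, no trend, the pool number as a block, each pool left out and the mean over probe sets. Chosen after seeing the data were adding probe sets with several symbols, leaving out members named as processed copies, the sequence motifs and the signal range of 823 to 2178. Array number limits the precision.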

Additional observations from a re-analysis of the deposited data

How the results depend on the processing

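Counts of passing probe sets rest on single probe sets. The ribosomal protein count of 1 became 0 without a brightness limit, without a mean-variance trend, with the pool number as a block, and in the range 0 to 0 with each pool left out, and became 2 at a threshold of 0.10. At an unadjusted p under 0.05, limma gave 12, 6, 13 and, with a pool left out, 6 to 9 of them. The initiation factor count of 1 became 2 with quantile normalization, with the limit at the 60th percentile or with several-symbol probe sets added, 3 at a threshold of 0.10, and 0 to 0 with each pool left out (4 to 6 unadjusted). The elongation factor count was 0 in all alternatives run (1 to 4 unadjusted). The median change of ribosomal proteins (0.060) was 0.089 with median scaling, 0.033 with several-symbol probe sets, and 0.045 to 0.094 with each pool left out. That of initiation factors (0.015) was 0.006 to 0.112 with a pool left out. That of elongation factors (0.059) was 0.088 with median scaling, -0.095 with the mean over probe sets, and 0.045 to 0.084 with a pool left out. The difference between ribosomal proteins and factors (0.045) ranged from -0.049 to 0.056 with a pool left out. It was 0.014 with quantile normalization and 0.009 with several-symbol probe sets added. With 1 pool left out, the lone pool is assumed to vary like the others. Same-numbered pools did not deviate together (correlation -0.04), so the block is a check only. Under it the call for Rps27l was lost (adjusted p = 0.0689) and those for Eef2k and Eif5 were kept. Over 54 named probe sets, 623 of 642 refits stayed on the same side of the threshold, 16 lost a call, 3 gained one and 0 reversed. All 16 losses were in the 3 probe sets that had passed, of Eef2k (5 of 12 refits), Eif5 (4 of 12) and Rps27l (7 of 12). The other named probe sets had no call to lose, so the 623 do not measure how stable a call was. The cause of these changes was not tested.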
